A study of Mus musculus with 25 samples.

Results

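The 34 genes described here encode the enzymes of glycolysis, the carriers that bring glucose into a cell and take lactate out, and a set of genes known to be induced by the hypoxia-inducible factor HIF, with Hif1a itself and 2 of the HIF prolyl hydroxylases. They were chosen by gene symbol, with no measured value in the rule, out of 23940 symbols in the table. Earlier results of these data were known when they were chosen. Counts of members set beside the share of all genes are therefore a description and not independent support. All 34 were found, and all 34 had the mean of at least 1 FPKM (fragments per kilobase of transcript, scaled to the library's total) that the tests required. By role they are 3 transporters, 9 enzymes of upper glycolysis, 6 enzymes of lower glycolysis, 3 regulators of glycolytic flux, 3 genes of the HIF pathway itself and 10 other HIF targets.

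RNA was sequenced from 25 tumor biopsies of YUMM1.7, a mouse melanoma line with mutant Braf, grown in C57BL/6 mice. The labels give 7 groups in 2 batches. In batch 2, Y1.7-BRAFi-aPDL2-large (aPDL2_large, n = 2) are tumors resistant to a BRAF inhibitor (BRAFi) combined with an antibody against PD-L2, Y1.7-BRAFi-aPDL2-small (aPDL2_small, n = 2) are residual tumors on that combination, and Y1.7-BRAFi-Prog (Prog_b2, n = 3) are tumors resistant to the inhibitor alone. In batch 1, Y1.7-Prog (Prog, n = 5) are resistant tumors, Y1.7-Res (Res, n = 5) residual or cytostatic tumors on the inhibitor, Y1.7-Reg (Reg, n = 4) tumors regressing on it, and Y1.7-Veh (Veh, n = 4) tumors before any inhibitor. All 7 groups share the same cell line, so no group differs from another in its founding mutations. The labels used here name neither the inhibitor nor its dose, the times of biopsy or the ages of the mice. They number the tumors of a group without saying whether they grew in separate mice, and p-values therefore measure the spread between these biopsies, which may in part be technical.

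Glycolysis splits glucose into pyruvate in the cytosol, and lactate dehydrogenase can reduce that pyruvate to lactate, which regenerates the cofactor that lower glycolysis needs. HIF is a dimer whose alpha subunit is hydroxylated by the EGLN enzymes and degraded when oxygen is present. When oxygen is short the alpha subunit persists and the dimer binds DNA at a short core sequence near genes for glucose uptake, nearly every glycolytic step, lactate export, pH control, mitophagy and collagen hydroxylation. Melanomas with active BRAF are known for high glucose uptake, and BRAF signaling is one of the inputs into that program besides oxygen.

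The HIF core is short enough to be read directly in the promoters of the members, and the promoters of the genes with the largest changes are printed for that reason. RefSeq promoters of GRCm38.p6, from 250 bases before to 50 bases after the first listed start, were searched on both strands for ACGTG and GCGTG, with overlapping matches counted separately. Of the 34 members, 32 matched an entry (Slc2a3 and Ndrg1 did not). Either core stood in 27 of the 32, which is 84.4%, against 43.8% of all 27025 promoters of the same length. The ACGTG form alone stood in 20 of the 32, or 62.5%, against 19.7% of all promoters. The members' promoters also had a higher median GC content, 64.8% against 52.7%, so base composition differed alongside. Many members were listed because they are known HIF targets, so a higher share with the HIF core is not an independent result. Ldha, for lactate dehydrogenase, held the most matches, 7, of which 5 were ACGTG, and Bnip3 held 5. The 5 members without a match in this window were Hk1, Gpi1, Aldoa, Tpi1 and Eno2. The sequences run 5′ to 3′ on the gene's strand, and capitals mark the cores, where CACGT and CACGC are the same cores read on the other strand. Adm lies on the plus strand of chr7:110627407-110627706, Slc2a1 on the plus strand of chr4:119108495-119108794 and Ankrd37 on the minus strand of chr8:45999801-46000100. These 3 had large changes in resistant tumors. Pfkfb3 lies on the minus strand of chr2:11553880-11554179 and Slc16a3 on the plus strand of chr11:120948817-120949116, and both were higher in residual tumors.
Adm: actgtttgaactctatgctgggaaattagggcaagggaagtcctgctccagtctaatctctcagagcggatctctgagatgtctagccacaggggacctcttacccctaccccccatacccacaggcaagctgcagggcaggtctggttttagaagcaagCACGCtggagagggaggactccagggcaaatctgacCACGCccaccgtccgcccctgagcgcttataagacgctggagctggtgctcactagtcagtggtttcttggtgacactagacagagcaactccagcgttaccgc
Slc2a1: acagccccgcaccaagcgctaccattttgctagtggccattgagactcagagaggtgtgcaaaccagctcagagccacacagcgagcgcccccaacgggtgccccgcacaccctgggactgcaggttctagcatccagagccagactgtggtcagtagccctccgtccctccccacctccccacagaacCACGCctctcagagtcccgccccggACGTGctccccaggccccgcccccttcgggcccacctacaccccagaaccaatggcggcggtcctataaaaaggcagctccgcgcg
Ankrd37: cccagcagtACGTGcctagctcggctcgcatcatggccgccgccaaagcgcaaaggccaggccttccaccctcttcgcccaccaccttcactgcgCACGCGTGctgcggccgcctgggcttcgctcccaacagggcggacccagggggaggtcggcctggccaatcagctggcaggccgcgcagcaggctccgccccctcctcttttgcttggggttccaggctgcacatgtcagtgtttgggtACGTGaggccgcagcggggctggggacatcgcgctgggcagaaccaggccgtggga
Pfkfb3: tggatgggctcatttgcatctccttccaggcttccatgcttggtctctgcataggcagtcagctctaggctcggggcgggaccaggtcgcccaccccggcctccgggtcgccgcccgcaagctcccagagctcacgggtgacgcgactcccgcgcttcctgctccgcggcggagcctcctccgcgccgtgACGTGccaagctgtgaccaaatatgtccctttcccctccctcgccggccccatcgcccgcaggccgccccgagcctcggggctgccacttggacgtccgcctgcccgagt
Slc16a3: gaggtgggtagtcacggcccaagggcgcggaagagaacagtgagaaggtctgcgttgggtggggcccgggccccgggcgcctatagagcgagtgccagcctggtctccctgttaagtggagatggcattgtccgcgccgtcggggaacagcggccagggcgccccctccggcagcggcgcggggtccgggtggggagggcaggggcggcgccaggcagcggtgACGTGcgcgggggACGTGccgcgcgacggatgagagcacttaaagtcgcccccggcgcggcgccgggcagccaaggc
In Ankrd37 a GCGTG and a CACGC overlap in the run CACGCGTG, which gives that promoter 4 matches. Pfkfb3 has 1 match and the other 3 have 2 each. A match is a description of these letters and is not a measured binding site.

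Levels spanned a wide range within the set. By mean FPKM over the 25 libraries, Ldha (684.4), Aldoa (679.6) and Pgk1 (479.7) were the most abundant, and Slc2a3 (1.11), Pfkfb4 (4.80) and Aldoc (5.27) the least. Within batch 1, Prog had the highest group mean for 28 of the 34 members, Res for 5 (Slc2a3, Pfkm, Eno2, Pfkfb3 and Pfkfb4) and Veh for 1 (Aldoc). The lowest mean of batch 1 was that of Reg for 15 members, Res for 12, Veh for 6 and Prog for 1. These orders were not counted over all genes, so they describe the members only. Summed over the enzymes of upper and lower glycolysis, FPKM was 4428 ± 546 in Prog, 2256 ± 661 in Res, 2280 ± 772 in Reg and 2919 ± 1011 in Veh (SD, n = 5, 5, 4 and 4). The sums of the 10 other HIF targets were 726 ± 223 in Prog, 327 ± 111 in Res, 241 ± 80.0 in Reg and 297 ± 118 in Veh.

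**Figure D1:**
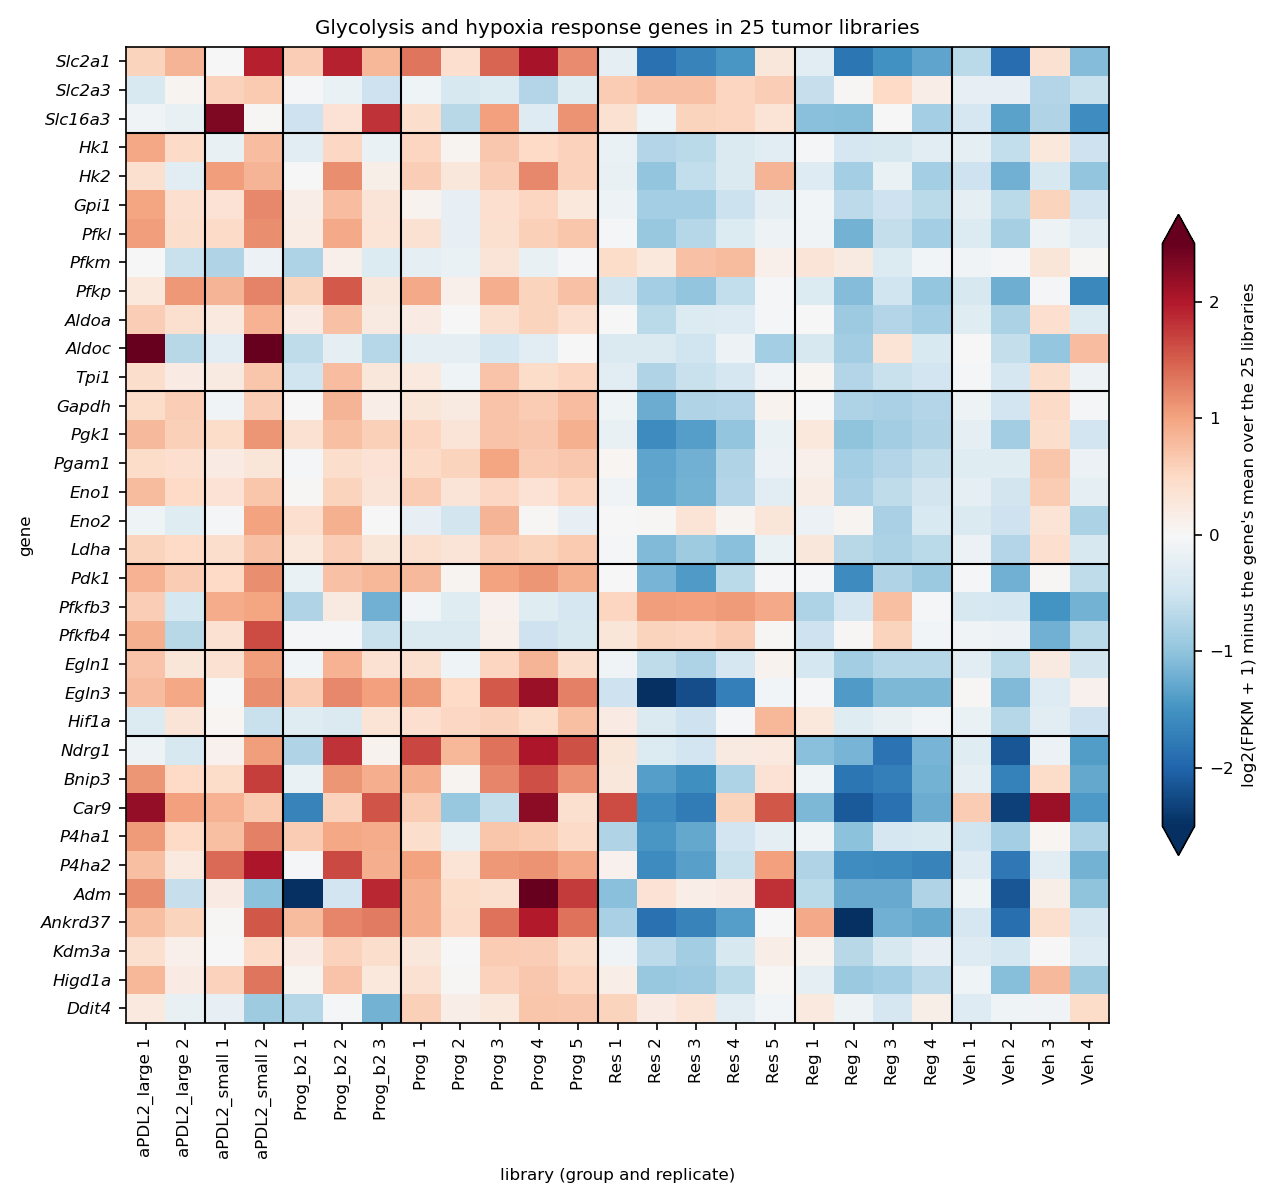
Heat map of log2(FPKM + 1) of the 34 genes (rows, grouped by role) in the 25 libraries (columns), each row shown as the difference from the gene's mean over the libraries. Red is above and blue below that mean. The 5 Prog columns are red for most rows, the Res, Reg and Veh columns are mostly blue except single libraries such as Reg 1 and Veh 3, and the rows Slc2a3, Pfkm, Pfkfb3 and Pfkfb4 are red in Res.

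Libraries within a group differed in the level of the set as a whole. Veh 3 was the highest of the 4 Veh libraries for 26 of the 34 members and Veh 2 the lowest for 24. Reg 1 was the highest of Reg for 27 members, Prog 2 the lowest of Prog for 26, Prog_b2 2 the highest of Prog_b2 for 26 and Prog_b2 1 the lowest for 26. Among the pairs, aPDL2_small 2 and aPDL2_large 1 were each the higher one for 28. Veh 1, Veh 3 and Res 1 also held the keratinocyte gene Krt14 at 592, 98.2 and 158 FPKM, against at most 9.05 in the other libraries. Column sums of FPKM ran from 496435 to 2065749 and size factors by the median of ratios from 0.954 to 1.041. A single entry, Mir2137, made up 0% of the sum in Reg 4, the lowest, and 66.1% in Veh 3, the highest. The depth in reads is unknown, and 9 of the columns look like means of a pair of values. Of 7 melanocyte lineage genes, Sox10 and Mitf alone had a group mean of at least 1 FPKM, and the pigment genes were near 0. Because these are bulk biopsies, fewer cells of a type and less RNA per cell cannot be told apart in any result that follows.

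Within batch 1, most members were called higher in the resistant tumors than in each of the other groups. In Prog against Veh, 22 of 34 members were higher and none lower at an adjusted p below 0.05, where 46.3% of the 12210 genes tested were called, 25.2% as higher. The median log2 change of log2(FPKM + 1) was 0.74 over the members and 0.01 over all genes tested. Against Reg, 27 members were higher and none lower (48.4% of all genes called, 24.3% as higher), with a member median of 1.05 and an all-gene median of 0.02. Against Res, 24 members were higher and 4 lower (72.4% of all genes called, 40.0% as higher and 32.4% as lower), with a member median of 0.91 and an all-gene median of 0.08. These 3 comparisons share the Prog libraries. The count against Veh rested partly on single untreated libraries: it was 14 without Veh 2 and 26 without Veh 3. The members that kept their call under every alternative were 13 of 22 against Veh, 22 of 27 against Reg and 26 of 28 against Res.

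Residual tumors differed from untreated ones in few of these genes. In Res against Veh, 6 members were higher and none lower, where 45.5% of all genes tested were called and 20.4% as higher, so the share of members called (6 of 34) was below that of all genes. The member median was a log2 change of -0.06 and the all-gene median -0.03. The 6 were Slc2a3, Slc16a3, Pfkm, Pfkfb3, Pfkfb4 and Ndrg1. Members called lower appeared when 1 library was left out: Egln3, Eno1 and Pgam1 without Res 1, these 3 and Gapdh without Res 5, and Egln3 and Eno1 without Veh 2. In Res against Reg, 5 of these (all but Pfkfb4) were higher and none lower, with 36.4% of all genes called and 13.9% as higher. That count was 3 without Res 3, without Reg 1 or without Reg 4. In Reg against Veh no member was called, and 3 had an unadjusted p below 0.05. By the same limma test 2 of all 12210 genes were called (0.0164%) and 1364 had an unadjusted p below 0.05. The members' median log2 change in Reg against Veh was -0.27, against 0.02 over all genes.

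**Figure D2:**
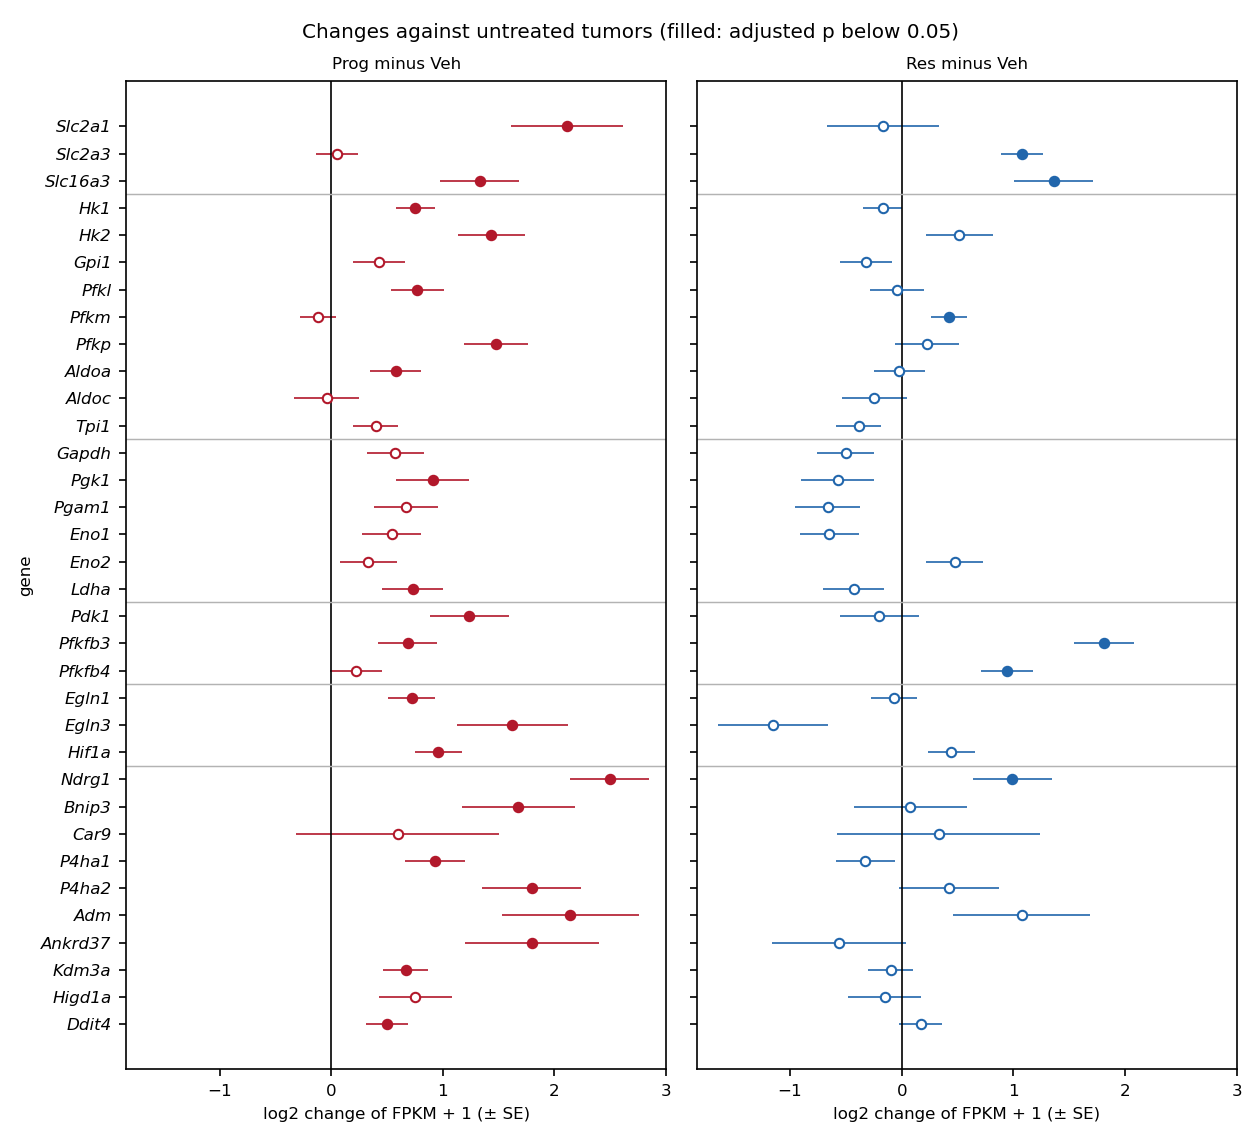
Log2 change of log2(FPKM + 1) with its SE for the 34 genes in Prog minus Veh (left) and Res minus Veh (right), in the same row order; filled points have an adjusted p below 0.05. Prog has 22 filled points, all right of 0, and Res has 6, with the enzymes of lower glycolysis other than Eno2 left of 0 and unfilled. Both panels use the same 4 Veh libraries.

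The transporters went 3 different ways. Slc2a1 encodes GLUT1, the widely expressed glucose importer and a standard HIF target. Its FPKM was 277, 145, 300, 460 and 248 in Prog, 91.5, 29.3, 33.4, 39.0 and 132 in Res, 89.9, 30.3, 37.7 and 42.8 in Reg, and 67.6, 28.4, 142 and 51.0 in Veh. Every Prog library lay above every library of the other 3 groups of batch 1, by a narrow gap between Prog 2 and Veh 3. The log2 change was 2.11 ± 0.50 against Veh (SE, adjusted p = 0.00299), 2.52 ± 0.50 against Reg (adjusted p = 0.00105) and 2.28 ± 0.47 against Res (adjusted p = 0.000423). Slc2a3 encodes GLUT3, a high-affinity importer known from neurons and blood cells, and was near the lower limit of expression. Its FPKM was 0.853, 0.511, 0.582, 0.210 and 0.625 in Prog, 2.11, 2.31, 2.30, 1.91 and 2.05 in Res, 0.346, 1.03, 1.82 and 1.23 in Reg, and 0.734, 0.730, 0.203 and 0.355 in Veh. All 5 Res libraries lay above all libraries of the other 3 groups. The change was 1.07 ± 0.19 in Res against Veh (adjusted p = 0.000286) and -1.02 ± 0.18 in Prog against Res (adjusted p = 8.35e-05). Slc16a3 encodes MCT4, the lactate exporter of glycolytic cells. It had 15.1, 6.40, 23.3, 8.48 and 25 FPKM in Prog, 14.6, 10, 16.5, 16.2 and 14.2 in Res, 4.82, 4.74, 11.0 and 5.62 in Reg, and 7.91, 3.73, 6.04 and 3.07 in Veh. It was higher than in Veh in both states, by 1.33 ± 0.35 in Prog (adjusted p = 0.00611) and by 1.36 ± 0.35 in Res (adjusted p = 0.00534). Prog libraries overlapped Res on both sides and the difference between them was -0.03 ± 0.33 (adjusted p = 0.942).

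In upper glycolysis, 5 of 9 members were higher in Prog than in Veh, 7 were higher and 1 lower in Prog than in Res, and 1 was higher in Res than in Veh. Of all genes tested, 25.2% were higher in Prog than in Veh and 20.4% were higher in Res than in Veh. In Prog against Res 72.4% were called, 40.0% as higher and 32.4% as lower. Hk1 and Hk2 encode hexokinases, which trap glucose in the cell, and Hk2 is the inducible form. Hk2 had 26.2, 20.6, 26.2, 40.1 and 25.6 FPKM in Prog, 14.7, 8, 10.6, 12.8 and 31.3 in Res, and 11.4, 6.75, 12.5 and 8.03 in Veh. Prog lay above Veh without overlap, with a change of 1.43 ± 0.30 (adjusted p = 0.00128), while Res 5 reached into the Prog range. Hk1 averaged 63.1 ± 9.53 in Prog, 33.0 ± 5.87 in Res and 37.8 ± 11.2 in Veh (SD). It was 0.75 ± 0.17 higher in Prog than in Veh (adjusted p = 0.00259) and 0.92 ± 0.16 higher than in Res (adjusted p = 0.000115). Gpi1, which makes fructose phosphate, averaged 199 ± 38.4 in Prog, 119 ± 27.6 in Res and 154 ± 64.0 in Veh. It passed against Res (0.75 ± 0.22, adjusted p = 0.00598) but not against Veh (0.43 ± 0.23, adjusted p = 0.139).

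The phosphofructokinases, which catalyse the committed step, did not move together. Pfkp, the platelet form, had 40.7, 22.5, 39.4, 30.8 and 34.9 FPKM in Prog, 14.6, 11.0, 9.79, 13.0 and 20.1 in Res, and 15.4, 8.20, 19.9 and 6.05 in Veh. Prog did not overlap either group, and the changes were 1.48 ± 0.29 against Veh (adjusted p = 0.000826) and 1.25 ± 0.27 against Res (adjusted p = 0.00066). Pfkl, the liver form, was also higher in Prog, by 0.77 ± 0.24 against Veh (adjusted p = 0.0147) and 0.81 ± 0.23 against Res (adjusted p = 0.00402). Pfkm, the muscle form, had 14.5, 15.3, 21.8, 15.2 and 17.0 FPKM in Prog, 24.3, 21.1, 29.6, 30.8 and 18.9 in Res, 21.9, 20.3, 13.5 and 16.5 in Reg, and 16.3, 16.9, 21.5 and 17.8 in Veh. Res reached highest, and its libraries overlapped each of the other groups. The change was -0.54 ± 0.15 in Prog against Res (adjusted p = 0.00481) and 0.42 ± 0.16 in Res against Veh (adjusted p = 0.0427). The second of these calls was lost in 10 of 16 alternatives, with adjusted p up to 0.108.

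Skeletal muscle markers were also higher in Res. The summed FPKM of 11 muscle genes, of which Acta1 was the most abundant, was 4.02 to 52.0 in Prog, 91.3 to 1226 in Res, 8.70 to 73.7 in Reg and 6.40 to 128 in Veh, and group means of at least 1 FPKM were reached by 6, 11, 9 and 9 of the 11 genes in these groups. The part of muscle RNA in the Pfkm result was not tested. Aldoa, the main aldolase, averaged 806 ± 116 FPKM in Prog, 535 ± 97.0 in Res and 561 ± 207 in Veh and passed in Prog against Veh at an adjusted p of 0.047, a call lost in 10 of 16 alternatives. Tpi1, triose phosphate isomerase, averaged 394 ± 82.1 in Prog, 227 ± 40.9 in Res and 300 ± 77.5 in Veh and passed against Res (0.78 ± 0.19, adjusted p = 0.00158) but not against Veh (0.40 ± 0.20, adjusted p = 0.116). Aldoc, the aldolase of brain, stayed at 3.49 FPKM or below in all of batch 1 and passed in no comparison.

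In lower glycolysis 5 of 6 members were higher in Prog than in Res and 5 higher than in Reg, while 2, Pgk1 and Ldha, passed against Veh. Of all genes tested, 40.0% were higher in Prog than in Res, 24.3% than in Reg and 25.2% than in Veh. The 2 of 6 against Veh is near that last share. Ldha had 839, 790, 975, 933 and 1002 FPKM in Prog, 619, 293, 342, 308 and 563 in Res, 766, 390, 366 and 398 in Reg, and 571, 379, 850 and 477 in Veh. Prog lay above all Res and Reg libraries, and Veh 3 reached into the Prog range. The change was 1.16 ± 0.26 against Res (adjusted p = 0.000717) and 0.73 ± 0.27 against Veh (adjusted p = 0.0366). Pgk1, the first ATP-yielding enzyme of the pathway, had 615, 529, 691, 671 and 782 FPKM in Prog, 373, 141, 163, 213 and 376 in Res, 508, 209, 230 and 250 in Reg, and 361, 231, 573 and 303 in Veh. Prog again lay above Res and Reg and overlapped Veh 3. Its change was 1.48 ± 0.31 against Res (adjusted p = 0.000459), the largest of lower glycolysis, and 0.91 ± 0.33 against Veh (adjusted p = 0.0326). The calls of Ldha and Pgk1 against Veh were each lost in 7 of 16 alternatives.

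Pgam1, Gapdh and Eno1 encode the other lower steps. Pgam1 averaged 570 ± 80.7 FPKM in Prog, 240 ± 102 in Res, 259 ± 87.8 in Reg and 371 ± 142 in Veh. Gapdh averaged 400 ± 66.3 in Prog, 198 ± 71.9 in Res, 188 ± 56.6 in Reg and 273 ± 77.0 in Veh. Eno1 averaged 289 ± 26.0 in Prog, 133 ± 48.9 in Res, 160 ± 53.1 in Reg and 207 ± 77.3 in Veh. All 3 lay without overlap above Res and above Reg, with changes against Res of 1.34 ± 0.27, 1.08 ± 0.24 and 1.19 ± 0.25 in the same order (adjusted p = 0.000356, 0.000792 and 0.000484), and none passed against Veh (adjusted p = 0.0654, 0.0745 and 0.104). In Res against Veh the same enzymes had log2 changes of -0.66 ± 0.29, -0.50 ± 0.25 and -0.65 ± 0.27, none of which passed (adjusted p = 0.0696, 0.118 and 0.0561). Eno2, the neuronal enolase, averaged 6.28 ± 2.98 in Prog, 6.64 ± 0.871 in Res and 4.72 ± 2.08 in Veh and passed in no comparison. Several of these enzymes have processed pseudogenes, whose reads the authors' counting could have split or added, so their absolute levels are uncertain. The libraries are unstranded, so reads of an antisense partner cannot be told apart.

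**Figure D3:**
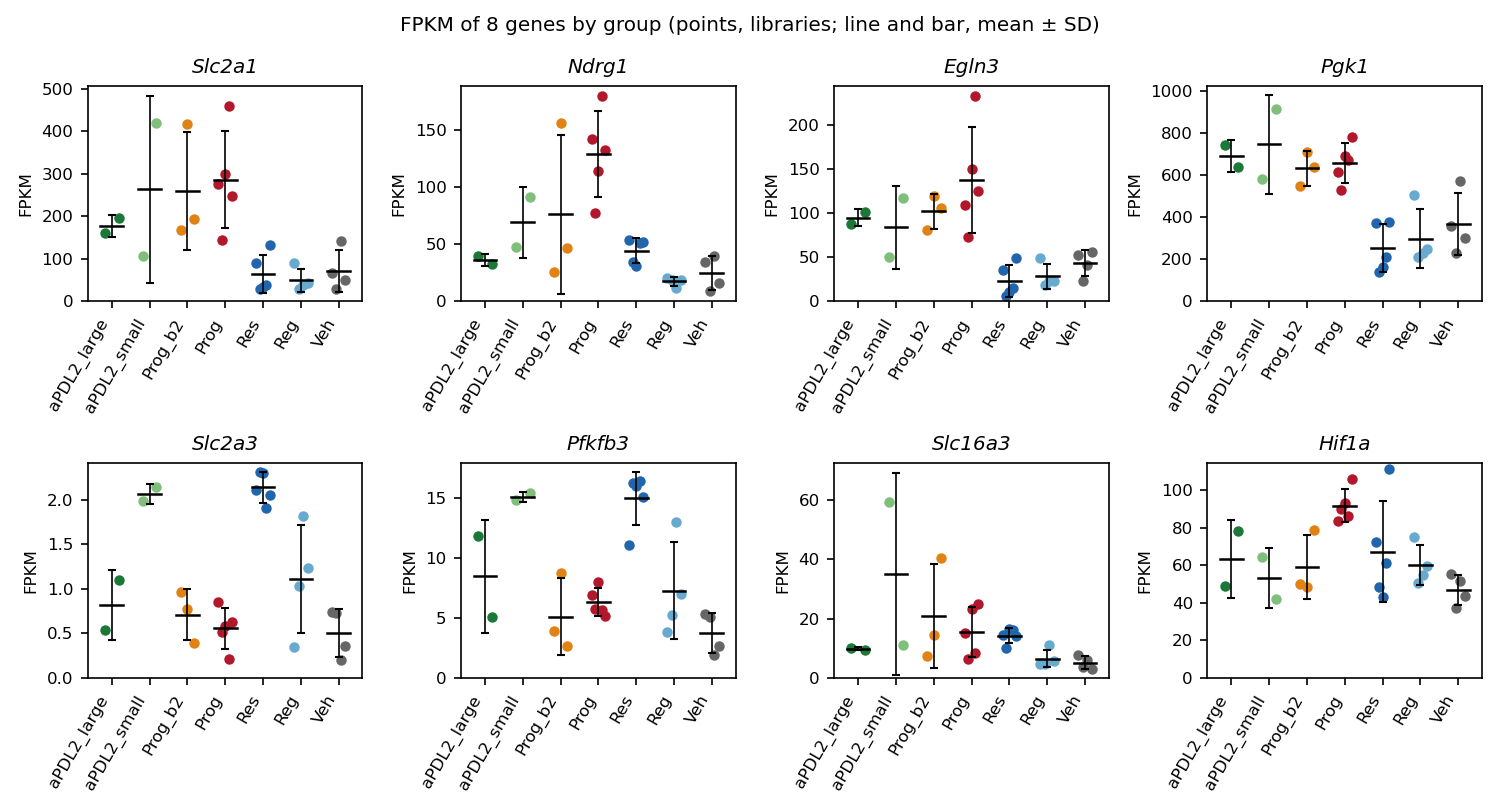
FPKM of 8 genes by group (points, libraries; line and bar, mean ± SD; n = 2, 2, 3, 5, 5, 4 and 4 from left to right), each panel on its own linear axis from 0. Among the batch 1 groups, the means of Slc2a1, Ndrg1, Egln3, Pgk1 and Hif1a are highest in Prog and those of Slc2a3 and Pfkfb3 in Res. Slc16a3 is raised in both Prog and Res against Veh.

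The regulators of glycolytic flux split between the states. Pdk1 encodes a kinase that inhibits pyruvate dehydrogenase and so keeps pyruvate from the mitochondria. It had 28.8, 16.9, 33.1, 35.6 and 30.2 FPKM in Prog, 16.0, 6.60, 5.33, 9.68 and 15.3 in Res, and 15.4, 6.42, 16.4 and 9.89 in Veh, with Prog above both others. The changes were 1.24 ± 0.35 against Veh (adjusted p = 0.00945) and 1.44 ± 0.33 against Res (adjusted p = 0.00108). Pfkfb3 and Pfkfb4 make the sugar bisphosphate that activates phosphofructokinase, and Pfkfb3 has the stronger kinase activity. Pfkfb3 had 6.92, 5.75, 8.01, 5.70 and 5.20 FPKM in Prog, 11.1, 16.2, 16.0, 16.4 and 15.1 in Res, 3.85, 5.24, 13.0 and 7 in Reg, and 5.29, 5.09, 1.95 and 2.66 in Veh. Res lay above all Prog and Veh libraries, and Reg 3 reached into the Res range. The change was 1.81 ± 0.27 in Res against Veh (adjusted p = 6.96e-05), the largest of the 34 in that comparison, and -1.13 ± 0.25 in Prog against Res (adjusted p = 0.000846). In Prog against Veh Pfkfb3 passed narrowly (0.68 ± 0.27, adjusted p = 0.0465), and that call was lost in 11 of 16 alternatives.

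Pfkfb4 had 3.13, 3.11, 4.76, 2.70 and 2.99 FPKM in Prog, 5.57, 6.79, 6.72, 7.23 and 4.38 in Res, and 4.00, 3.76, 1.29 and 2.34 in Veh. Res lay above all Veh libraries, and Prog 3 reached into the Res range. It was 0.94 ± 0.23 higher in Res than in Veh (adjusted p = 0.00411), and its change in Prog against Res was -0.72 ± 0.22 (adjusted p = 0.00805). These 2 comparisons share the Res libraries. Leukocyte markers were also high in Res. The summed FPKM of 8 macrophage genes, led by C1qa and C1qb, was 201 to 288 in Prog, 1155 to 2615 in Res, 479 to 1994 in Reg and 206 to 968 in Veh. Summed FPKM of 8 neutrophil genes was 416 to 974 in Prog, 596 to 2108 in Res, 95.3 to 212 in Reg and 72.0 to 320 in Veh. These neutrophil sums rest on different genes: Mmp9 was the most abundant in every Prog library, at 200 to 396 FPKM in Prog, 13.6 to 47.4 in Res, 34.2 to 114 in Reg and 16.7 to 76.0 in Veh, while S100a8 led in every Res library, at 46.9 to 373 in Prog, 295 to 1104 in Res, 8.69 to 86.7 in Reg and 7.50 to 174 in Veh. All 8 macrophage genes had group means of at least 1 FPKM in each of the 4 groups, and so did 8, 8, 7 and 7 of the neutrophil genes. T cell genes summed to 1.54 to 3.65 in Prog, 8.88 to 106 in Res, 6.55 to 96.0 in Reg and 7.14 to 26.1 in Veh, with 0, 5, 5 and 5 of 5 at a group mean of at least 1 FPKM. The part of these cells in the Slc2a3, Slc16a3, Pfkfb3 and Pfkfb4 results was not tested.

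All 3 genes of the HIF pathway itself were higher in Prog than in Veh, Reg and Res. Of all genes tested, 25.2%, 24.3% and 40.0% were higher in these comparisons. Hif1a, the oxygen-regulated subunit, had 83.4, 89.7, 93.2, 86.0 and 106 FPKM in Prog, 72.3, 48.5, 43.3, 61.3 and 111 in Res, 75.1, 50.7, 54.6 and 59.8 in Reg, and 55.2, 37.5, 51.4 and 43.6 in Veh. Prog lay above all Reg and Veh libraries, and Res 5 above all Prog libraries. The change was 0.96 ± 0.21 against Veh (adjusted p = 0.00173) and 0.52 ± 0.20 against Res (adjusted p = 0.0273), a call lost in 4 of 17 alternatives. HIF activity is known to be set mostly by the stability of this protein, which was not measured. Egln1 and Egln3 encode 2 of the prolyl hydroxylases that mark HIF alpha for degradation, and both are induced by HIF. Egln3 had 109, 73.4, 150, 233 and 125 FPKM in Prog, 35.5, 6.30, 10.2, 15.1 and 49.3 in Res, 49.7, 18.7, 23.1 and 23.1 in Reg, and 52.8, 23.4, 41.0 and 55.8 in Veh. Every Prog library lay above every other library of batch 1. The change against Res, 2.77 ± 0.47 (adjusted p = 6.67e-05), was the largest of the 34 members in that comparison, and that against Veh was 1.62 ± 0.50 (adjusted p = 0.014, or 0.0538 without Veh 2). In Res against Veh Egln3 had a log2 change of -1.15 ± 0.50, which did not pass (adjusted p = 0.0677). Egln1 averaged 54.3 ± 12.6 in Prog, 31.0 ± 8.0 in Res, 24.2 ± 3.24 in Reg and 32.7 ± 9.38 in Veh, and was 0.72 ± 0.21 higher in Prog than in Veh (adjusted p = 0.0102).

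Of the 10 other HIF targets, 8 were higher in Prog than in Veh, 9 higher than in Reg and 7 higher than in Res, and 1, Ndrg1, was higher in Res than in Veh. Over all genes tested, the shares called higher were 25.2%, 24.3%, 40.0% and 20.4% in the same order. Ndrg1, a stress-induced gene used as a marker of chronic hypoxia, had 142, 77.9, 114, 180 and 133 FPKM in Prog, 54.2, 34.4, 31.0, 51.0 and 52.1 in Res, 20.7, 18.9, 11.5 and 18.9 in Reg, and 35.0, 9.12, 39.5 and 15.9 in Veh. Prog lay above all other libraries of batch 1 and Res above all of Reg. The change of 2.49 ± 0.35 in Prog against Veh (adjusted p = 7.09e-05) was the largest of the 34, as was that of 2.80 ± 0.35 against Reg (adjusted p = 4e-05). In Res Ndrg1 was 1.29 ± 0.35 higher than in Reg (adjusted p = 0.00929) and 0.99 ± 0.35 higher than in Veh (adjusted p = 0.0296), the last call being lost in 6 of 16 alternatives. Adm, a secreted vasodilator peptide, had 26.6, 19.3, 18.6, 148 and 48.6 FPKM in Prog, 6.20, 18, 15.6, 16.0 and 51.1 in Res, and 12.8, 2.36, 15.3 and 6.36 in Veh. It rose by 2.14 ± 0.61 in Prog against Veh (adjusted p = 0.00971), and against Res, where Res 5 overlapped, the difference of 1.07 ± 0.58 did not pass (adjusted p = 0.108). The sum of 7 endothelial genes was 101 to 137 FPKM in Prog, 71.4 to 155 in Res, 57.0 to 96.7 in Reg and 27.1 to 65.6 in Veh, with 6, 7, 7 and 7 of 7 at a group mean of at least 1 FPKM. In Prog most of that sum was Cdh5, at 76.7 to 118 FPKM in Prog, 13.0 to 29.7 in Res, 13.6 to 30.3 in Reg and 7.55 to 21.8 in Veh. Its 6 companions on the list did not follow it, and Esam, for example, was at 2.45 to 3.84 in Prog, 15.0 to 31.6 in Res, 9.71 to 16.4 in Reg and 5.50 to 12.3 in Veh. What part these cells had was not tested. Ankrd37, an ankyrin repeat gene known as a direct HIF target, had 41.7, 30.6, 57.6, 89.1 and 57.0 FPKM in Prog, 11.9, 5.24, 6.16, 7.80 and 21.6 in Res, 42.9, 2.53, 8.85 and 8.40 in Reg, and 15.9, 5.17, 29.2 and 16.0 in Veh. Reg 1 alone reached into the Prog range, and the change was 1.80 ± 0.60 against Veh (adjusted p = 0.022, up to 0.0891 when 1 library was left out) and 2.36 ± 0.57 against Res (adjusted p = 0.00139).

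Bnip3, a mitophagy receptor, had 156, 87.4, 195, 257 and 185 FPKM in Prog, 101, 31.5, 28.1, 48.1 and 107 in Res, and 70.5, 25.2, 115 and 33.5 in Veh. Prog 2 alone overlapped Res and Veh. It was 1.68 ± 0.51 higher in Prog than in Veh (adjusted p = 0.0129, or 0.0542 without Veh 2) and 1.60 ± 0.48 higher than in Res (adjusted p = 0.00662). P4ha1 and P4ha2 encode catalytic subunits of collagen prolyl hydroxylase, which hydroxylates collagen. P4ha2 had 46.5, 29.2, 49.5, 51.0 and 44.9 FPKM in Prog, 24.6, 7.02, 8.23, 15.2 and 47.2 in Res, 13.0, 7.12, 6.85 and 6.48 in Reg, and 17.9, 5.84, 18.8 and 9.45 in Veh. It was higher in Prog by 1.80 ± 0.45 against Veh (adjusted p = 0.00397) and by 1.37 ± 0.42 against Res (adjusted p = 0.00779), with Res 5 inside the Prog range. P4ha1 averaged 94.5 ± 20.5 in Prog, 40.2 ± 14.3 in Res and 49.6 ± 15.3 in Veh, with changes of 0.93 ± 0.27 (adjusted p = 0.00979) against Veh and 1.25 ± 0.25 (adjusted p = 0.000322) against Res. Kdm3a, a histone demethylase, averaged 17.7 ± 3.23 in Prog, 10.2 ± 3.25 in Res and 10.7 ± 1.53 in Veh and was 0.67 ± 0.20 higher than in Veh (adjusted p = 0.0125). Fibroblast genes, led by Col3a1, summed to 2004 to 3315 FPKM in Prog, 2893 to 5071 in Res, 1546 to 2310 in Reg and 1472 to 2092 in Veh, with all 7 at a group mean of at least 1 FPKM. Their part in the P4ha1 and P4ha2 results was not tested.

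The remaining 3 HIF targets gave weaker or no calls. Higd1a, a mitochondrial survival protein, averaged 40.7 ± 6.83 in Prog, 22.2 ± 8.71 in Res and 27.0 ± 17.7 in Veh and passed against Res (0.91 ± 0.31, adjusted p = 0.0148) but not against Veh (adjusted p = 0.0699). Ddit4, an inhibitor of mTOR signaling, averaged 103 ± 17.1 in Prog, 82.7 ± 18.4 in Res and 73.5 ± 18.2 in Veh. Its call in Prog against Veh (0.50 ± 0.19, adjusted p = 0.0404) was lost in 9 of 16 alternatives. Car9, the carbonic anhydrase that serves as a common tissue marker of hypoxia, had 10.7, 2.95, 4.01, 34.9 and 8.97 FPKM in Prog, 22.4, 1.54, 1.25, 10.1 and 21.1 in Res, 2.49, 0.773, 1.07 and 2.20 in Reg, and 10.8, 0.500, 32.3 and 1.80 in Veh. Within Veh alone Car9 spanned nearly the whole range of the batch, with Veh 3 high and Veh 2 low. It passed in no comparison, and its difference in Prog against Veh was 0.60 ± 0.91 (adjusted p = 0.607).

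Shares within isozyme families were taken as a description, per length and without a test. The Pfkm share of summed phosphofructokinase FPKM was 13.1% to 20.6% in Prog, 24.4% to 45.8% in Res, 24.4% to 42.8% in Reg and 25.2% to 34.9% in Veh, so all Prog libraries lay below all others of batch 1. The Pfkp share was 27.8% to 36.8% in Prog, 15.1% to 25.9% in Res and 10.3% to 24.9% in Veh. Of Egln1 and Egln3 together, the Egln3 share was 66.7% to 76.4% in Prog, 20% to 54.2% in Res, 47.2% to 63.4% in Reg and 47.1% to 66.3% in Veh. Prog lay above all 3 other groups, by a narrow gap to Veh 4. The P4ha2 share of both collagen hydroxylase subunits was 30.5% to 33.2% in Prog, 22.3% to 44.7% in Res, 10.9% to 17.5% in Reg and 13.4% to 26.8% in Veh. Of both hexokinases, the share of Hk2 was 26.6% to 38.5% in Prog, 23.3% to 46.1% in Res, 19.4% to 30.4% in Reg and 18.9% to 23.2% in Veh.

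**Figure D4:**
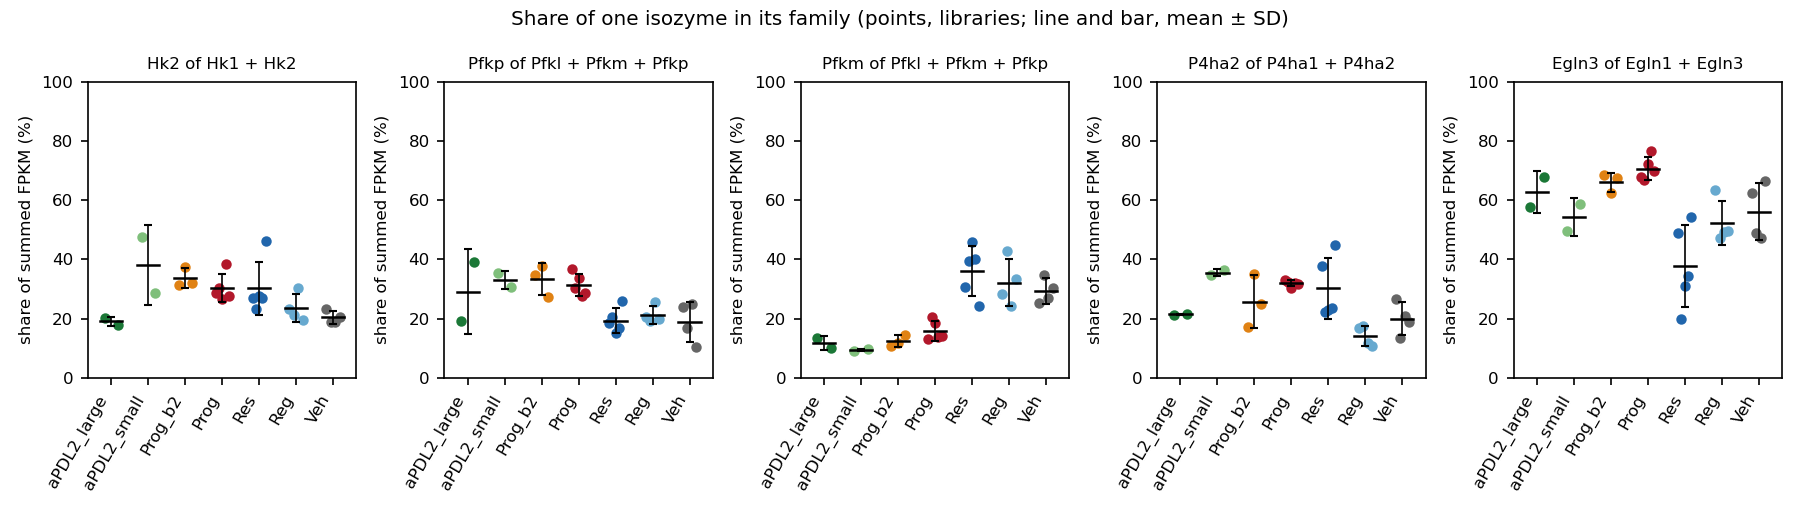
Share (percent) of 1 isozyme in the summed FPKM of its family, by group (points, libraries; line and bar, mean ± SD), on axes from 0 to 100. The Pfkm share is lowest in the batch 2 groups and Prog and highest in Res, Reg and Veh. The Egln3 share is highest in Prog, at 66.7% to 76.4%, and lowest in Res.

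Other genes of the same pathways were counted from lists written with the members, also with earlier results of these data known. Among 31 other hypoxia-induced genes tested, 16 were higher and 3 lower in Prog against Veh, 21 higher and 3 lower against Reg, and 17 higher and 5 lower against Res. Over all genes tested, 25.2% were higher and 21.1% lower in Prog against Veh, 24.3% and 24.1% against Reg, and 40.0% and 32.4% against Res. In Res against Veh 5 were higher and 2 lower, beside 20.4% and 25.1% of all genes. The called genes with the smallest adjusted p in Prog against Veh were Ccng2, a cell cycle inhibitor (61.4 ± 15.6 FPKM in Prog and 26.0 ± 2.57 in Veh, a change of 1.18 ± 0.18), Hmox1, the heme oxygenase (1.89 ± 0.30), Mxi1, an antagonist of Myc (1.55 ± 0.27), and Pdgfb, a growth factor that was lower (-1.26 ± 0.23). In Res against Veh they were Hmox1 (240 ± 77.6 FPKM in Res and 29.9 ± 7.70 in Veh, a change of 2.93 ± 0.30), Angptl4, a lipoprotein lipase inhibitor (26.2 ± 9.38 in Res and 1.5 ± 0.348 in Veh, a change of 3.4 ± 0.46), Pdgfb (1.32 ± 0.23) and Edn1, the vasoconstrictor endothelin (1.26 ± 0.25). Pdgfb thus had opposite signs in the 2 states, and in Prog against Res it was at -2.58 ± 0.22 (adjusted p = 1.1e-07).

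Of 10 HIF subunits and regulators tested, 4 were higher and 1 lower in Prog against Veh, and 3 were higher and none lower in Res against Veh. These 5 of 10 and 3 of 10 stand beside 46.3% and 45.5% of all genes called. In either direction, the first is near that background and the second below it. All 3 of the second were higher, where 20.4% of all genes were higher. Epas1, which encodes the second HIF alpha subunit, averaged 11.9 ± 2.60 FPKM in Prog, 20.4 ± 2.33 in Res, 14.9 ± 3.02 in Reg and 7.09 ± 2.04 in Veh. Its change was 0.68 ± 0.18 in Prog against Veh (adjusted p = 0.0055), 1.43 ± 0.18 in Res against Veh (adjusted p = 1.2e-05) and -0.75 ± 0.17 in Prog against Res (adjusted p = 0.00082), so the 2 alpha subunits differed in which state was higher. Of 18 other glycolytic isozymes and pyruvate genes, 4 were higher and 4 lower in Prog against Veh, 8 higher and 5 lower in Res against Veh, and 8 higher and 9 lower in Prog against Res. Of all genes, 46.3%, 45.5% and 72.4% were called in these comparisons, and the list's 8 of 18 in Prog against Veh is near that background. In Res the called genes included Bpgm, which makes the bisphosphoglycerate that regulates hemoglobin in red cells (1.40 ± 0.25), and Pgam2, the muscle mutase (6.59 ± 3.20 FPKM in Res and 1.41 ± 0.914 in Veh, a change of 1.63 ± 0.31). Eno3, the muscle enolase, was at -2.56 ± 0.26 in Prog against Res (2.16 ± 0.688 FPKM in Prog and 18.5 ± 7.22 in Res). Erythroid marker genes summed to 40.7 to 298 FPKM in Prog, 18.9 to 3360 in Res, 23.0 to 224 in Reg and 6.94 to 135 in Veh, with 3, 5, 3 and 3 of 6 genes at a group mean of at least 1 FPKM. Hbb-b1, the most abundant of them, was at 0.00615 in Res 1 and 531 to 2897 in the other Res libraries. Alas2 was at 1.80 to 6.86 in Prog, 17.1 to 65.7 in Res, 1.07 to 4.27 in Reg and 2.68 to 3.43 in Veh. Slc4a1 overlapped, at 0.714 in Res 1 and 0.934 in Reg 3. The part of red cells and, with the sums given for muscle, of muscle was not tested. Pkm, the pyruvate kinase, was named after its values were seen and averaged 1515 ± 158 in Prog, 611 ± 254 in Res and 889 ± 308 in Veh. Of 7 pentose phosphate genes, 2 were higher and 3 lower in Prog against Veh, none higher and 3 lower in Res against Veh, and 4 higher and 2 lower in Prog against Res, beside the same shares of all genes. The 3 of 7 in Res against Veh is near the share called in either direction. All 3 were lower, where 25.1% of all genes were lower. Tkt, transketolase, averaged 89.1 ± 11.5 in Prog, 42.3 ± 3.18 in Res and 72.4 ± 5.73 in Veh, and was 0.76 lower on the log2 scale in Res than in Veh (-0.76 ± 0.13, adjusted p = 0.00023).

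The second set of resistant tumors, from batch 2, was also set against the untreated tumors. In Prog_b2 against Veh, 8 members were higher and none lower, with 19.6% of 12197 genes called and 8.84% as higher. Batch and group cannot be told apart in this comparison. The 8 were Slc2a1, Slc16a3, Hk2, Pfkl, Pfkp, P4ha1, P4ha2 and Kdm3a, in a comparison that shares the Veh libraries with Prog against Veh. Pfkp was at 1.61 ± 0.35 (adjusted p = 0.00422), Slc2a1 at 1.95 ± 0.59 (adjusted p = 0.0247) and P4ha1 at 1.35 ± 0.29 (adjusted p = 0.0039), and P4ha1 alone kept its call under every alternative. The count was 2 without Veh 2, 3 without Veh 4, 3 without Prog_b2 2 (2 higher and 1 lower) and 17 without Veh 3. The member called lower without Prog_b2 2 was Ddit4, which is not among the 8. In Prog_b2 against Prog, 1 member was called, with 8.94% of all genes called and 6.06% as lower and 2.88% as higher. That member was Ddit4, with 44.2, 70.2 and 31.5 FPKM in Prog_b2, against 111, 82.1, 88.0, 119 and 117 in Prog, without overlap. Its change was -1.13 ± 0.25 (adjusted p = 0.00787), and the count was 2 without Prog_b2 2 and 3 without Prog_b2 3. Hif1a and Pgam1 also lay without overlap below Prog, but did not pass (adjusted p = 0.101 and 0.399). Ndrg1 spread widely in Prog_b2, at 25.7, 156 and 46.8 FPKM.

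No member was called in any comparison within batch 2. In aPDL2_small against Prog_b2, 2 members had an unadjusted p below 0.05, and of all 11913 genes tested by limma 0 (0%) were called while 1399 had an unadjusted p below 0.05. In aPDL2_large against Prog_b2 no member and 165 of all genes were below that unadjusted level, with 0 called (0%). In aPDL2_large against aPDL2_small no member and 946 genes were below it, again with 0 called (0%). By label aPDL2_small tumors are residual like Res. Their group means were the highest of all 7 groups for 18 of the 34 members. Those of aPDL2_large were for 4, Prog_b2 for 1, Prog for 9 and Res for 2. Batch and group cannot be told apart in this order. The aPDL2_small means rest on 2 libraries, and aPDL2_small 2 was the higher one for 28 of the 34 members. How often each group had the highest mean over all genes was not counted. Slc2a1 had 160 and 196 FPKM in aPDL2_large, 108 and 419 in aPDL2_small, and 168, 418 and 193 in Prog_b2. Pgk1 had 743 and 637 in aPDL2_large, 581 and 913 in aPDL2_small, and 549, 712 and 637 in Prog_b2. The groups overlapped for both genes.

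Of the 6 members called higher in Res than in Veh, Slc2a3 and Pfkfb3 had their highest values of batch 2 in the aPDL2_small libraries. Pfkm had 9.82 and 15.6 FPKM in aPDL2_small, which overlapped both other groups of the batch. Its group mean there was the lowest of all 7 groups, an order in which batch and group cannot be told apart. For Slc16a3 and Ndrg1, aPDL2_small lay above aPDL2_large and overlapped Prog_b2. For Pfkfb4, aPDL2_small lay above Prog_b2 and overlapped aPDL2_large. Slc2a3 had 0.542 and 1.10 FPKM in aPDL2_large, 1.98 and 2.14 in aPDL2_small, and 0.960, 0.776 and 0.393 in Prog_b2. Pfkfb3 had 11.8 and 5.10 in aPDL2_large, 14.8 and 15.4 in aPDL2_small, and 3.93, 8.77 and 2.64 in Prog_b2. Both aPDL2_small libraries lay above the other 5 of the batch for these genes, yet neither passed against Prog_b2 (0.85 ± 0.29, adjusted p = 0.351, and 1.52 ± 0.48, adjusted p = 0.333). Macrophage genes summed to 288 to 573 FPKM in aPDL2_large, 1040 to 2123 in aPDL2_small and 293 to 934 in Prog_b2, with all 8 at a group mean of at least 1 FPKM, and their part was not tested. P4ha2 had 39.2 and 27.0 FPKM in aPDL2_large, 62.5 and 94.7 in aPDL2_small, and 22.3, 73.2 and 43.4 in Prog_b2. Aldoc, which was low elsewhere, had 86.1 FPKM in aPDL2_large 1 and 19.6 in aPDL2_small 2. Those are the libraries in which Sox10 had 188 and 140 FPKM, against at most 10.7 in the other 23. Sox10 was listed above with the melanocyte lineage and is also a neural crest and Schwann cell factor. Which cells held the Aldoc RNA was not tested. Adipocyte genes, led by Fabp4, summed to 4.80 to 434 FPKM in aPDL2_large, 778 to 985 in aPDL2_small and 7.19 to 61.5 in Prog_b2. All 6 had group means of at least 1 FPKM in both antibody groups, and the part of these cells was not tested.

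Both treatments have resistant and residual tumors, so the contrast of resistant against residual can be compared between them. The difference (aPDL2_large minus aPDL2_small) minus (Prog minus Res) was positive for 6 of the 34 members, with a median of -0.96 on the log2 scale against -0.06 over all genes. It passed for 5, all lower, where 15.0% of 12197 genes were called and 8.81% as lower. The members' share was near that of all genes called in either direction. None of the 5 calls was kept under every alternative. These were Hk2 (-1.80 ± 0.54, adjusted p = 0.0326), Ndrg1 (-2.35 ± 0.76, adjusted p = 0.0418), P4ha1 (-1.48 ± 0.45, adjusted p = 0.0329), P4ha2 (-2.59 ± 0.78, adjusted p = 0.0323) and Egln3 (-2.48 ± 0.82, adjusted p = 0.0468). Ndrg1, for example, had 39.8 and 32.8 FPKM in aPDL2_large against 47.3 and 91.2 in aPDL2_small, while Prog averaged 130 ± 37.5 and Res 44.5 ± 10.9. Egln3 had 88.4 and 102 in aPDL2_large against 50.9 and 117 in aPDL2_small, while Prog averaged 138 ± 60 and Res 23.3 ± 18.4. Treatment and batch cannot be told apart in this difference. The count was 0 without Res 2, Res 3, aPDL2_small 2 or aPDL2_large 1, 2 without Prog 3, 3 without Prog 1, Prog 4 or Prog 5, 8 without Res 1 and 10 without Res 5. Without aPDL2_large 2 all 5 lost their call, and 2 others were called, Aldoc as higher and Pfkp as lower.

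**Figure D5:**
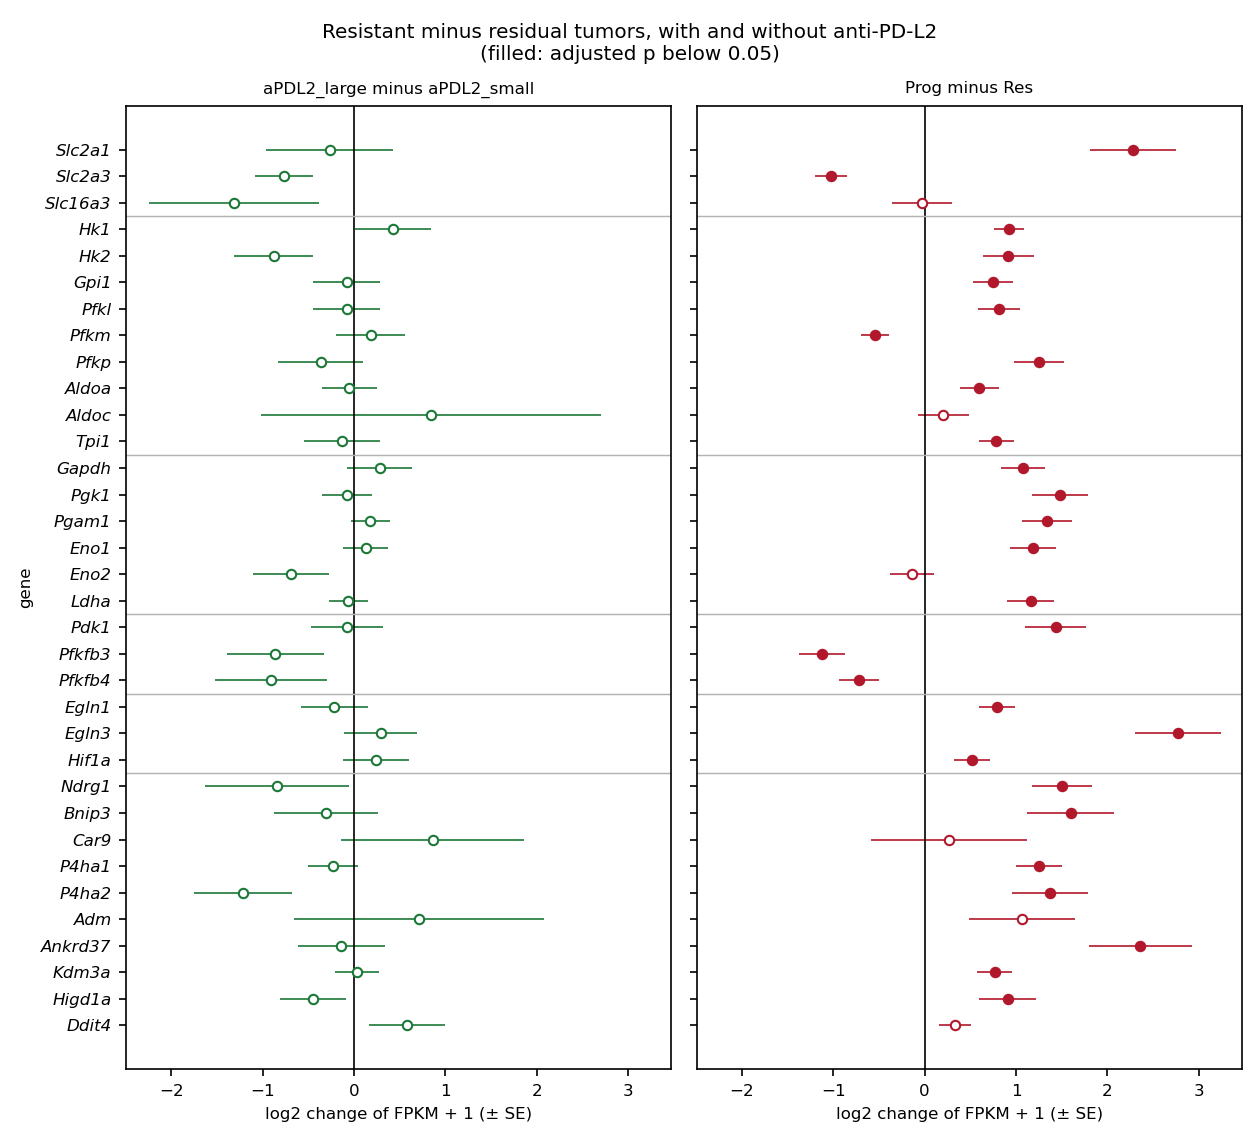
Log2 change of log2(FPKM + 1) with its SE for the 34 genes in aPDL2_large minus aPDL2_small (left) and Prog minus Res (right); filled points have an adjusted p below 0.05. The left panel has no filled point and scatters around 0, with a median of -0.08, and the right panel has 24 filled points right of 0 and 4 left of it.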

How the data were processed

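The authors' deposited table holds FPKM (fragments per kilobase of transcript, scaled to the library's total) for 23940 gene symbols in 25 libraries. Per the labels' protocols, RNA was extracted with a mirVana kit and poly(A) RNA made into unstranded TruSeq libraries, read in pairs. Per the submitters' processing notes, TopHat or TopHat2, Cuffnorm, Cuffdiff and the mm9 build were used, with versions and roles not given in the sources used here. Read counts were not used here, so the depth is unknown and intervals for counting error are left out. In 16 columns of single values the step of 1 fragment spanned 1.74-fold, and 9 columns (Veh 1, 2 and 4, Res 1, 3 and 5, Prog 2, 4 and 5) look like means of a pair.

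The tests ran limma 3.58.1 (lmFit, contrasts.fit, eBayes with a trend; R 4.3.3) on log2(FPKM + 1), 1 term per group, on genes with a mean of at least 1 FPKM. This scale understates the change of genes of low expression. Comparisons within batch 1 used its 18 libraries, those within batch 2 its 7, and those across batches all 25. Tests were two-sided, with Benjamini-Hochberg adjustment over all genes tested, and a gene was called, and written as rising or falling, below 0.05. Directions are read from called values only. The fits were tested on simulated data. Python 3.11.15 with numpy 2.4.6, pandas 2.3.3 and matplotlib 3.10.9 made the tables and figures. The members and lists were chosen with earlier results of these data known. All 34 members are named; of the other lists, up to 4 called genes with the smallest adjusted p per comparison, besides Pkm. Promoters are those of the 4 members with the largest called change in Prog against Veh (Ndrg1 has no entry) and of the top 2 in Res against Veh. Alternatives were a pseudocount of 0.1, no filter, median-of-ratios size factors, a replicate block, only the groups compared, a term for the mean-like columns, leaving out the 3 libraries with high Krt14, and leaving out each library.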

Additional observations from a re-analysis of the deposited data

Results flagged for a closer look

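In groups of 4 or 5 libraries, 10 of the 136 pairs of member and group had a library set apart from the rest by Dixon's criterion, of which chance flags about 5%. Reg 1 was high for Ldha at 766 FPKM (366 to 398 in the other Reg libraries), for Gapdh at 273 (155 to 164) and for P4ha2 at 13.0 (6.48 to 7.12). Prog 2 was low for Hk1 at 47.0 FPKM (64.0 to 72.2 in the other Prog libraries), for Pdk1 at 16.9 (28.8 to 35.6) and for P4ha2 at 29.2 (44.9 to 51.0). Veh 3 was high for Pgam1 at 582 FPKM (290 to 323 in the other Veh libraries). Res 1 was low for Pfkfb3 at 11.1 (15.1 to 16.4 in the other Res libraries), Prog 3 was high for Pfkfb4 at 4.76 (2.70 to 3.13) and Reg 3 was low for Ndrg1 at 11.5 (18.9 to 20.7). These flags fall mostly in Reg 1 and Prog 2, the libraries that were highest and lowest of their groups for 27 and 26 of the 34 members.

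The resistant-to-residual contrast differed between the antibody combination and the inhibitor alone for 5 of 34 members, all lower, by the test of that difference. Of all genes 15.0% were called, 8.81% as lower, so the share of members is near the background of either direction. None of the 5 calls was kept under every alternative. The log2 differences were -1.80 for Hk2, -2.35 for Ndrg1, -1.48 for P4ha1, -2.59 for P4ha2 and -2.48 for Egln3. Batch and treatment cannot be told apart in them.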

How the results depend on the processing

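No member reversed direction with a call under any setting. Of the single values, 5625 stayed on their side of the threshold, 189 lost a call and 92 gained one. In Res against Veh the count of 6 became 11 (6 higher and 5 lower: Egln3, Eno1, Gapdh, Pgk1 and Tpi1) with the replicate block and 4 to 9 when 1 library was left out. The replicate numbers share only a number: in batch 1 the 25 same-numbered pairs correlated at -0.517 to 0.376 with a median of 0.0145. Leaving out 1 library gave 14 to 26 in Prog against Veh, 3 to 6 in Res against Reg, 22 to 27 in Prog against Reg, 26 to 29 in Prog against Res and 1 to 3 in Prog_b2 against Prog. In Prog_b2 against Veh the count of 8 became 5 without the filter on low values, 2 with only the groups compared, 3 with a term for the mean-like columns, 13 without the 3 libraries with high Krt14, and 2 to 17 with 1 library left out. In the difference between treatments the count of 5 became 3 without the filter, 3 with the replicate block, 12 without the libraries with high Krt14, and 0 to 10 with 1 library left out. The causes were not tested. Leaving out 1 of a pair in batch 2 assumes that the lone library varies like the other groups. The numbers of the antibody groups correlated at -0.233, and a crossed pairing, chosen after seeing the data, left 0 calls. Over all genes, the 2 calls in Reg against Veh became up to 5, the 2389 in Prog_b2 against Veh as few as 525, the 1090 in Prog_b2 against Prog between 451 and 1905, and the 1830 in the difference between treatments as few as 491. Within batch 2 they reached 17 without the filter.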
